A study of Brassica napus with 6 samples.

Results

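Genes annotated to biotic stress were examined in the silique wall, the outer tissue of the rapeseed (Brassica napus) pod, between a pool of long-silique and a pool of short-silique accessions. The genes were the 45, of 3248 listed, whose functional classification in the deposited table begins with biotic stress. One further gene of that class was left out because its position is within the top 6 Mb of C02, and no gene described as HSPRO2 carried the class. By Swiss-Prot description, 9 of the 45 encode intracellular NB-LRR receptors, 15 encode defence effectors, which act on an attacker directly, and 21 fall outside both groups.

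Walls were collected 15 days after flowering from lines of an association population, and equal amounts of tissue from 12 accessions made the long pool and from 11 accessions the short pool. Each pool was sequenced as 3 libraries. The genotypes of the accessions are not given in the labels, and no label states whether the 3 libraries of a pool trace to different plants, so every p-value rests on variation among libraries, which may be technical. In bulk tissue, fewer cells of a type and less RNA per cell cannot be told apart.

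Plants detect pathogens inside the cell with NB-LRR proteins, receptors that join a nucleotide-binding domain to leucine-rich repeats and carry either a TIR or a coiled-coil domain at the front. Many of their genes stand in clusters of related copies that differ between accessions of a species. Downstream of the receptors, plants make chitinases, thaumatin-like proteins, defensins and inhibitors of digestive proteases, which act on fungi, bacteria and feeding insects.

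Genes outside the authors' calls were not analysed here, since the table is restricted to called genes. The recovered depth of the libraries ranged from 22892442 to 30259269 reads. Of 8 markers of silique wall and seed looked up by Arabidopsis locus, 2 had a listed copy, so the labelled tissue could not be checked in full. The copy of the chlorophyll-binding protein gene LHCB1.1 (BnaC07g09400D) had 18634 reads against 9334 (long, then short pool), and the copy of the organ polarity gene FIL (BnaC03g25170D) had 51 and 124. The part of such differences in the results below was not tested.

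The 4 chitinase and thaumatin-like genes were called lower in the long pool, where 43.5% of all listed genes tested were. Of 10 tested protease inhibitors, 6 were called lower and 2 higher, and immune receptors and defensins also went both ways. These calls rest on scaling to library depth: with TMM over the listed genes 1 effector was lower and 3 were higher. TMM takes most genes to be unchanged, but every listed gene was called by the authors, 65.6% of them as lower. Calls lost or gained with TMM, here and below, therefore show dependence on scaling and cannot decide which scaling is right. Of the 45 genes, 37 had enough reads to be tested, and 31 of those passed (edgeR quasi-likelihood test; p of at most 0.005 and, by Benjamini-Hochberg over the 65264 genes the authors tested, adjusted p of at most 0.05). That is 83.8% of the tested genes, against 66.6% of all 2574 listed genes tested. Of the 31, long libraries were higher for 11 and lower for 20, or 29.7% and 54.1% of those tested, against 23.1% and 43.5% of all listed genes tested. In the authors' deposited table the 45 genes had a median log2 fold change, long over short, of -1.28, against -1.18 over all listed genes. The pools did not overlap in CPM (reads scaled to library depth) for 44 of the 45 genes (97.8%, against 95.3% of all listed genes). With TMM scaling over the listed genes, which raised log2 fold changes by a median of 0.80, the split was 13 higher and 6 lower. Calls numbered 17 without long silique replicate 1 and 19 without long silique replicate 2, of which 16 and 18 were among the 31. Without short silique replicate 3 there were 19, all among the 31.

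**Figure D1:**
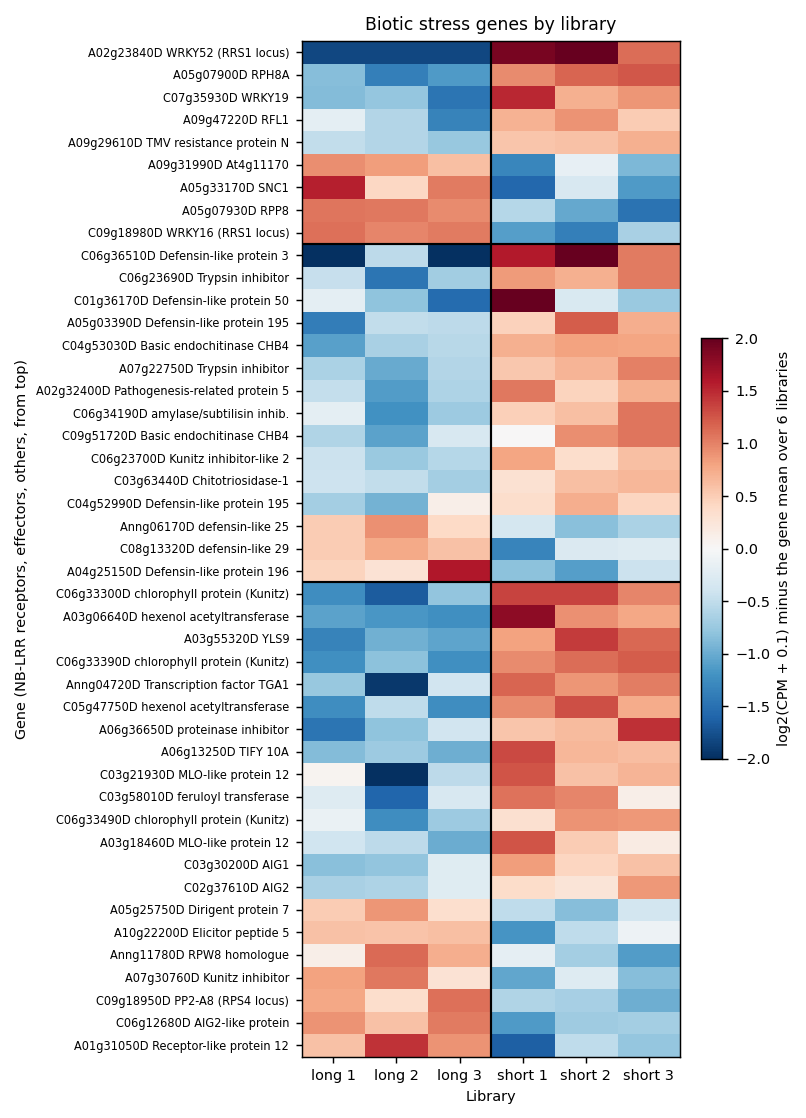
Level of each of the 45 genes (rows) in each of the 6 libraries (columns), as log2(CPM + 0.1) minus the gene's mean; colours are capped at 2 in either direction and black lines separate the receptors, the effectors and the other genes. In 14 rows all 3 long libraries stand above all short ones, in 30 rows below, and in 1 row (defensin-like protein 50, BnaC01g36170D) they overlap.

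Of the 9 NB-LRR genes, all tested, 4 were higher with long siliques and 4 lower (44.4% each, against 23.1% and 43.5% of all listed genes tested). The pools did not overlap for any of the 9, as for 95.3% of all listed genes. The receptor with the smallest p was BnaC09g18980D (C09, 15838049 to 15848398, positions here and below on the Darmor reference), a copy of Arabidopsis AT5G45260. That locus is RRS1, a TIR-type receptor that ends in a WRKY DNA-binding domain, although Swiss-Prot describes the rapeseed gene as WRKY 16. BnaC09g18980D had 268, 289 and 228 reads in the long libraries and 56, 53 and 82 in the short ones. Every long library thus stood well above every short one. The mean was 9.98 ± 0.432 CPM (SD, n = 3) against 2.34 ± 0.620 CPM (SD, n = 3), with log2 fold change 2.09 ± 0.24 (SE; edgeR adjusted p = 6.7e-05).

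Beside it, 5.59 kb away with no other listed gene between, lies BnaC09g18950D (C09, 15827888 to 15832463), a copy of AT5G45250. In Arabidopsis that locus is RPS4, the receptor that works as a pair with RRS1 and is its direct neighbour. Swiss-Prot describes the rapeseed gene as PHLOEM PROTEIN 2-LIKE A8, so the description places it outside the receptors. It had 67, 58 and 75 reads in long and 24, 26 and 19 in short libraries, again without overlap. The log2 fold change was 1.61 ± 0.33 (SE; edgeR adjusted p = 0.00878), in the same direction as its neighbour. The call ended in 3 of 6 fits with 1 library left out (without long silique replicate 1 or 3, or short silique replicate 3; log2 fold changes of 1.41 to 1.79 over the 6). Counted with the receptors, it makes them 5 higher and 4 lower. Of 4 other listed genes within 250 kb of the pair, 3 were listed as higher and 1 as lower, against 34.4% higher over the whole table.

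A further copy of AT5G45260, on A02, went the opposite way. BnaA02g23840D (A02, 17139707 to 17147166), described as WRKY 52, another name of RRS1, had 0 counts in every long library and 31, 53 and 18 in the short libraries. It was at least 32.8-fold lower in the long pool against a floor of 3 counts over that pool (edgeR adjusted p = 0.000291). The copy on C09 was thus read in both pools and the copy on A02 in the short pool alone at this depth. At 0.22 ± 0.10 FPKM (deposited reads per kilobase, scaled to depth; SD, n = 3) in the short pool, the A02 copy stood below the C09 copy, which had 0.340 ± 0.0917 FPKM (SD, n = 3) there, a gap close to the spread between libraries. Uniquely mapped reads were counted, so these values cover only reads that fit 1 copy.

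A pair of neighbouring genes of the RPP8 family on A05 also differed in direction. RPP8 is a coiled-coil receptor that in Arabidopsis confers resistance to downy mildew. BnaA05g07930D (A05, 4355492 to 4366355) had 163, 190 and 132 reads in long and 50, 41 and 27 in short libraries. BnaA05g07900D (A05, 4331946 to 4339328), described as the RPP8 homologue RPH8A, had 17, 13 and 12 against 65, 87 and 85. Each gene separated the pools without overlap, one upwards and one downwards. The log2 fold changes were 2.08 ± 0.28 (SE; edgeR adjusted p = 0.000298) and -2.42 ± 0.33 (SE; edgeR adjusted p = 0.00032). Both carry the Arabidopsis locus AT5G35450, lie 16.2 kb apart and have no listed gene between them. Of 5 other listed genes within 250 kb of the pair, 1 was listed as higher and 4 as lower, against 65.6% lower over the whole table. On the outer side of each gene of the pair lies a listed copy of AT2G36360, looked at after the values were seen. The copy beside the lower gene (BnaA05g07890D) had 16, 10 and 4 reads in long and 20, 37 and 19 in short libraries (log2 fold change -1.27 ± 0.48, SE; edgeR adjusted p = 0.43). The copy beside the higher gene (BnaA05g07940D) had 69, 128 and 78 against 49, 42 and 26 (log2 fold change 1.26 ± 0.31, SE; edgeR adjusted p = 0.0365).

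**Figure D2:**
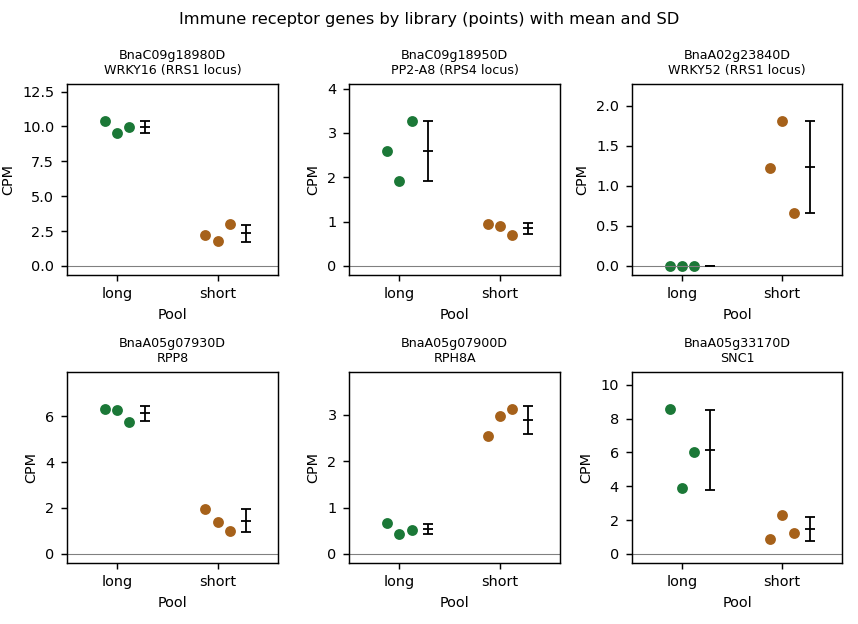
CPM of 6 genes in the 3 long (green) and 3 short (brown) libraries, with the mean and SD beside the points. All are receptors by description except the gene at the RPS4 locus, which is a receptor by locus only. The copy of the RRS1 locus on C09 and its neighbour at the RPS4 locus are higher in the long pool (means of 9.98 and 2.60 CPM against 2.34 and 0.844 CPM), the copy on A02 is at 0 there, and the neighbouring RPP8 and RPH8A genes go opposite ways.

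Of the remaining receptors, BnaA05g33170D (A05, 22556317 to 22563529) is described as SNC1 but matched to the Arabidopsis locus AT5G41550. SNC1 is a TIR-type receptor whose overactive form causes constant defence in Arabidopsis. BnaA05g33170D had 221, 117 and 138 reads in long and 23, 67 and 34 in short libraries. Its libraries varied more than those of the other higher receptors, but the pools stayed apart (log2 fold change 2.04 ± 0.36, SE; edgeR adjusted p = 0.00384). BnaA09g31990D, described as At4g11170, was higher by 1.62 ± 0.37 on the log2 scale (SE; edgeR adjusted p = 0.021), a call that ended in 4 of 6 fits with 1 library left out. Lower in the long pool were BnaC07g35930D, with 3, 4 and 1 reads against 26, 16 and 17, and BnaA09g29610D. BnaC07g35930D is described as WRKY 19 but matched to AT4G19510, and BnaA09g29610D is described as the tobacco mosaic virus resistance protein N. Their log2 fold changes were -2.79 ± 0.53 (SE; edgeR adjusted p = 0.00474) and -1.32 ± 0.32 (SE; edgeR adjusted p = 0.0313). The call of BnaA09g29610D ended in each of the 6 fits without 1 library, and with TMM scaling both ended. BnaA09g47220D, described as RFL1, did not pass (log2 fold change -1.54 ± 0.44, SE; edgeR adjusted p = 0.0929). The 4 receptors called lower became 2 without long silique replicate 1.

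Listed genes with the same receptor wording but outside the functional class numbered 11, of which 10 have no functional class in the table. Of the 7 tested, 1 was called higher and 4 lower, where 23.1% and 43.5% of all listed genes tested were. They include BnaAnng05600D, described as At5g45510, with 0 counts in the long libraries and 49, 35 and 25 in the short ones, and BnaC09g39490D, described as At4g11170, with 128, 142 and 124 against 27, 45 and 20. Both were picked out after their values were seen. Listed genes with effector wording outside the class numbered 6. Of the 5 tested, 1 was called higher and 3 lower, against 23.1% and 43.5% of all listed genes tested.

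Of 14 effectors tested, 3 had higher and 9 had lower levels with long siliques, or 21.4% and 64.3%, against 23.1% and 43.5% of all listed genes tested. The difference from the receptors was not tested. All 4 genes of chitinases and thaumatin-like proteins, which break down or disturb fungal cell walls and membranes, were lower. BnaC04g53030D (C04_random, 680771 to 682319), described as basic endochitinase CHB4, had 115, 185 and 149 reads in long and 404, 493 and 452 in short libraries. It had the smallest standard error of the 4, at 5.70 ± 1.08 CPM (SD, n = 3) against 16.5 ± 0.532 CPM (SD, n = 3), with with log2 fold change -1.53 ± 0.20 (SE; edgeR adjusted p = 0.000246). BnaC09g51720D, also described as CHB4 but matched to another Arabidopsis locus (AT3G47540), had 211, 178 and 228 reads against 322, 703 and 713. Its short replicate 1 stood far below the other 2 short libraries, and the log2 fold change was -1.39 ± 0.27 (SE; edgeR adjusted p = 0.00695).

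The thaumatin-like gene BnaA02g32400D is described as PR-5 but matched to AT5G24620, and the Arabidopsis PR5 locus itself had no listed copy. BnaA02g32400D had 66, 49 and 53 reads in long and 194, 145 and 163 in short libraries. Its log2 fold change was -1.52 ± 0.27 (SE; edgeR adjusted p = 0.00312). BnaC03g63440D, whose best Swiss-Prot match is a human chitinase (Chitotriosidase-1), had 37, 41 and 27 reads against 62, 88 and 85 and lay near the threshold (log2 fold change -1.11 ± 0.28, SE; edgeR adjusted p = 0.0463). Its call ended in 5 of the 6 fits without 1 library, and that of BnaC09g51720D in 2. With TMM scaling the log2 fold changes of the 4 were -0.73, -0.60, -0.72 and -0.30, in the order named, and none passed.

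Defensins, small cysteine-rich peptides that act on fungal membranes, went both ways. BnaAnng06170D, described as defensin-like protein 25, had 253, 396 and 208 reads in long and 137, 112 and 119 in short libraries. It was higher by 1.24 ± 0.22 on the log2 scale (SE; edgeR adjusted p = 0.00346) and had the largest FPKM of the 45 genes, 26.0 ± 5.17 (SD, n = 3) in the long pool. BnaC08g13320D, described as defensin-like protein 29, had 86, 121 and 81 reads against 22, 55 and 52 (log2 fold change 1.22 ± 0.31, SE; edgeR adjusted p = 0.0445). That call ended in all 6 fits without 1 library.

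Lower was BnaC06g36510D (C06, 35022524 to 35022778), described as defensin-like protein 3, with 0, 6 and 0 reads in long and 30, 50 and 21 in short libraries (log2 fold change -3.95 ± 0.72, SE; edgeR adjusted p = 0.00451). All its long reads came from replicate 2, and the fitted value without that library was -8.00. Of the 2 other listed genes within 250 kb, both were listed as lower, as were 65.6% of all listed genes. BnaC01g36170D, described as defensin-like protein 50, had 4, 2 and 0 reads in long and 87, 4 and 2 in short libraries and was not tested. It is the gene whose pools overlapped, and 1 short library carried nearly all its reads, although the authors' deposited table gives it a log2 fold change of -3.17.

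Protease inhibitors, which block the digestive enzymes of insects and microbes, were the largest family, with 12 genes. Of the 10 tested, 2 were higher and 6 lower with long siliques (20% and 60%, against 23.1% and 43.5% of all listed genes tested). Of the 12, 5 have no Swiss-Prot description and were placed by functional class; adding these 5 to the effectors makes the effectors 4 higher and 11 lower. For all 12 the pools did not overlap, 2 upwards and 10 downwards, where 95.3% of all listed genes did not overlap and 62.2% lay downwards.

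Kunitz proteins, a fold shared by many plant trypsin inhibitors, made up 8 of the 12, with 5 copies of AT1G73260 and 3 of AT1G72290. The 6 Kunitz genes on C06 were all listed as lower in the authors' deposited table, as were 65.6% of all listed genes. Of the 4 tested, 3 were called lower (75%, against 43.5% of all listed genes tested). Near 33 Mb, BnaC06g33300D (C06, 33250939 to 33251794), a copy of the water-soluble chlorophyll protein gene AT1G72290, had 10, 8 and 13 reads in long and 72, 83 and 59 in short libraries. Its log2 fold change, -2.70 ± 0.37 (SE; edgeR adjusted p = 0.000322), was the largest among the tested inhibitors. The copies BnaC06g33390D, with 0, 1 and 0 reads against 9, 12 and 12, and BnaC06g33490D, with 3, 0 and 1 against 5, 10 and 9, were too low to be tested. Over the pools the first stood 31.8-fold lower (95% exact counting interval 5.32 to 1294) and the second 5.78-fold lower (1.99 to 22.9). All 3 copies were therefore lower in reads, at levels that differ widely. In the same stretch, BnaC06g34190D (C06, 33753528 to 33754163), described as an alpha-amylase/subtilisin inhibitor, had 6, 2 and 3 reads against 11, 14 and 19 and did not pass (log2 fold change -1.90 ± 0.50, SE; edgeR adjusted p = 0.057). Every listed gene had been called by the authors, so any listed neighbour differs between the pools by selection. Of 8 further listed genes within 250 kb of this cluster, 1 was listed as higher and 7 as lower, against 65.6% lower over the whole table.

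A tandem pair of AT1G73260 copies stood elsewhere on C06, 0.985 kb apart, with no other listed gene within 250 kb. BnaC06g23690D had 11, 5 and 8 reads in long and 31, 32 and 38 in short libraries, and BnaC06g23700D had 31, 29 and 25 against 75, 63 and 70. Both were lower, by -1.99 ± 0.43 on the log2 scale (SE; edgeR adjusted p = 0.0146) and -1.24 ± 0.30 (SE; edgeR adjusted p = 0.0334) on the log2 scale. On A07, BnaA07g22750D, described as a trypsin inhibitor like BnaC06g23690D, had 15, 13 and 14 reads against 37, 47 and 55 (log2 fold change -1.65 ± 0.35, SE; edgeR adjusted p = 0.0131). These 3 calls ended in 3, 5 and 3 of the 6 fits without 1 library, and none held with TMM scaling.

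The fifth copy of AT1G73260 was the exception. BnaA07g30760D (A07, 21694959 to 21695712) had 240, 335 and 149 reads in long and 64, 129 and 78 in short libraries, with log2 fold change 1.46 ± 0.26 (SE; edgeR adjusted p = 0.00368). At 14.8 ± 3.81 FPKM (SD, n = 3) in the long pool it was also the most abundant inhibitor per length. The copies lower in the long pool reached at most 4.22 ± 0.656 FPKM (SD, n = 3; BnaC06g23700D in the short pool).

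Trypsin inhibitors of the defensin fold also went both ways. BnaA05g03390D, a copy of the trypsin inhibitor gene ATTI1 (AT2G43510), had 18, 42 and 31 reads in long and 71, 139 and 91 in short libraries (log2 fold change -1.66 ± 0.33, SE; edgeR adjusted p = 0.00694). Its counterpart on C04_random, BnaC04g52990D, had 39, 38 and 62 against 82, 123 and 92 and did not pass (log2 fold change -0.99 ± 0.31, SE; edgeR adjusted p = 0.154). BnaA04g25150D, described as ATTI-4, was higher, with 23, 24 and 48 reads against 8, 7 and 12 (log2 fold change 1.90 ± 0.48, SE; edgeR adjusted p = 0.0423). Long replicate 3 held about the sum of the other long libraries, and the call ended in 5 of the 6 fits without 1 library. BnaA06g36650D, classed as a proteinase inhibitor without further description, was lower by -2.02 ± 0.44 on the log2 scale (SE; edgeR adjusted p = 0.0157), a call that ended without long silique replicate 1 or 2 or short silique replicate 3. The call of BnaA05g03390D ended without long silique replicate 1. With TMM scaling the calls of BnaA05g03390D and BnaA06g36650D ended (log2 fold changes of -0.85 and -1.23).

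**Figure D3:**
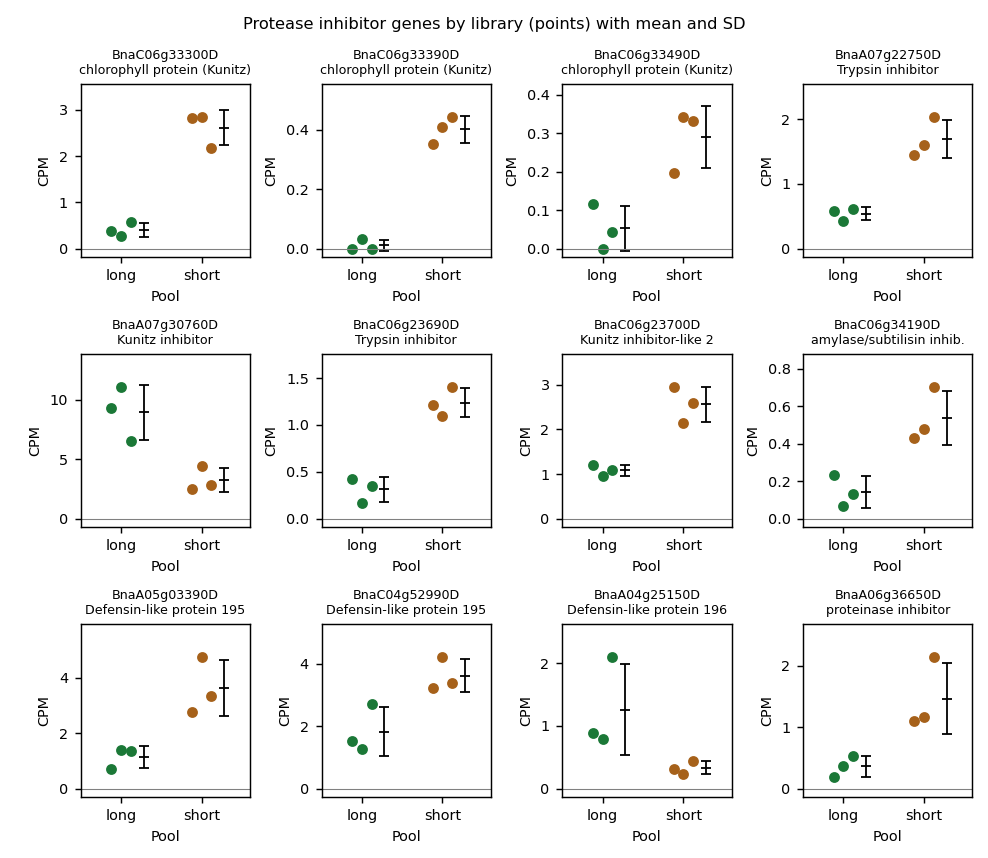
CPM of the 12 protease inhibitor genes in the 3 long (green) and 3 short (brown) libraries, with the mean and SD beside the points; the vertical scale differs between panels. The pools do not overlap in any panel, and 2 genes, BnaA07g30760D (8.97 against 3.27 CPM) and BnaA04g25150D (1.26 against 0.332 CPM), are higher in the long pool.

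Of the 16 genes that are neither receptors, effectors nor inhibitors by description, 11 were tested. Of those, 3 were called higher and 5 lower (27.3% and 45.5%, against 23.1% and 43.5% of all listed genes tested). BnaA03g55320D (A03_random, 251176 to 251883), a copy of NHL3 (AT5G06320), a membrane protein of the NDR1/HIN1-like family linked to bacterial resistance in Arabidopsis, had 17, 27 and 19 reads in long and 83, 146 and 113 in short libraries. The log2 fold change was -2.37 ± 0.30 (SE; edgeR adjusted p = 0.000189), and the call held in all 6 fits without 1 library. The TGA1 gene (BnaAnng04720D), a bZIP factor that acts with the salicylate regulator NPR1, had 9, 3 and 11 reads against 41, 38 and 39 (log2 fold change -2.26 ± 0.46, SE; edgeR adjusted p = 0.0089), a call that ended without long silique replicate 1 or 2. The JAZ1 gene (BnaA06g13250D), a repressor of jasmonate responses that jasmonate itself induces, had 16, 21 and 13 reads against 81, 58 and 52 (log2 fold change -1.89 ± 0.35, SE; edgeR adjusted p = 0.00386). The pools did not overlap for any of these 3 genes, as for 95.3% of all listed genes. With TMM scaling the calls of TGA1 and JAZ1 ended.

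AIG1 (BnaC03g30200D), a GTP-binding protein gene first found as induced by a bacterial effector, had 23, 28 and 32 reads against 78, 67 and 69 and was lower by -1.30 ± 0.31 on the log2 scale (SE; edgeR adjusted p = 0.0303); the call ended in 4 of the 6 fits without 1 library. AIG2 (BnaC02g37610D) did not pass (log2 fold change -1.09 ± 0.33, SE; edgeR adjusted p = 0.123), and the AIG2-like gene BnaC06g12680D, with 8, 7 and 8 reads against 0, 1 and 1, was too low to be tested. MLO proteins are membrane proteins whose loss makes plants resistant to powdery mildew. Of the 2 copies of MLO12, BnaC03g21930D did not pass (38, 8 and 22 reads against 90, 64 and 63; edgeR adjusted p = 0.0966) and BnaA03g18460D was not tested (3, 3 and 1 against 15, 9 and 6).

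Higher in the long pool was BnaA01g31050D, described as receptor-like protein 12, a cell-surface receptor without a kinase, with 33, 73 and 37 reads against 5, 16 and 12. Its log2 fold change was 2.14 ± 0.42 (SE; edgeR adjusted p = 0.00629), a call that ended without long silique replicate 2. BnaA05g25750D, described as dirigent protein 7, of a family that guides the coupling of lignin-like phenols, was higher by 1.24 ± 0.32 on the log2 scale (SE; edgeR adjusted p = 0.0487), the call nearest to the threshold, and it ended in all 6 fits without 1 library. The gene of the immune signal peptide precursor Elicitor peptide 5 (BnaA10g22200D) had 61, 71 and 55 reads against 16, 31 and 39 and did not pass (log2 fold change 1.18 ± 0.33, SE; edgeR adjusted p = 0.0892). BnaAnng11780D, a homologue of the mildew resistance gene RPW8, had 8, 22 and 12 reads against 6, 4 and 2 and was not tested. With TMM scaling both genes passed, at log2 fold changes of 1.98 and 2.61.

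Acyltransferases completed the set. BnaA03g06640D (A03, 2966296 to 2968127), described as a (Z)-3-hexen-1-ol acetyltransferase, which makes a green leaf volatile released on wounding, had 49, 54 and 39 reads in long and 370, 229 and 192 in short libraries. At -2.44 ± 0.28 (SE; edgeR adjusted p = 8.85e-05) it had the smallest p of all genes outside the receptors. A second gene of that description on C05 (BnaC05g47750D) had 0, 2 and 0 reads against 9, 14 and 8, a ratio of 14.9 (95% exact counting interval 3.80 to 129), and was not tested. It is matched to AT3G03480, the Arabidopsis gene of this enzyme, whereas the gene on A03 is matched to a related one, AT5G17540. The feruloyl transferase gene BnaC03g58010D had 6, 1 and 5 reads against 19, 20 and 9 and was not tested.

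**Figure D4:**
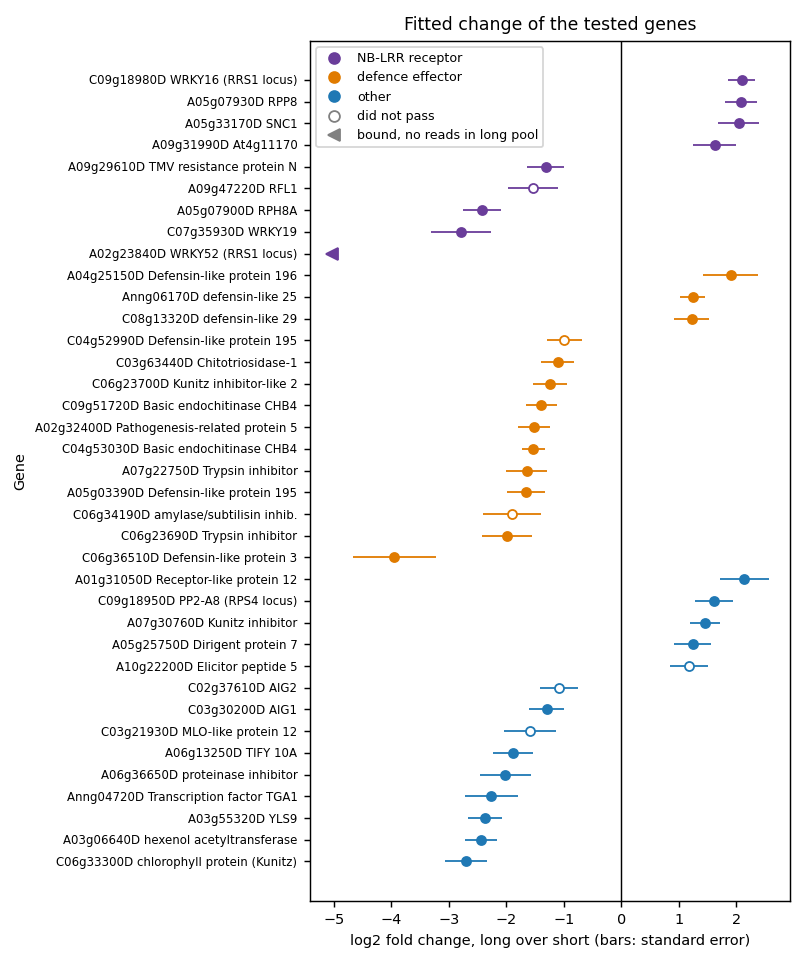
Log2 fold change, long over short, with its standard error for the 37 tested genes, by group; filled points passed the test and open points did not. The triangle marks the lower bound of the RRS1-locus copy on A02, which had no reads in the long pool (at least 32.8-fold lower). Receptors lie on both sides of 0, and 3 effectors are higher while 11 lie to the left, 9 of them filled.

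The 45 genes match 35 Arabidopsis loci. At 6 of these loci more than 1 copy was listed, 16 genes in all. Copies were listed in 1 direction at 3 loci (AT1G72290, AT2G39200 and AT2G43510) and in both directions at the other 3 (AT1G73260, AT5G35450 and AT5G45260). By subgenome, 23 of the genes lie on A chromosomes, and of 21 tested there 8 were called higher and 11 lower (38.1% and 52.4%). On C chromosomes lie 22, and of 16 tested 3 were called higher and 9 lower (18.8% and 56.2%), against 23.1% and 43.5% of all listed genes tested. The difference between the subgenomes was not tested. The C06 chromosome held 8 of the 45, 1 listed as higher and 7 as lower, against 65.6% lower over the whole table.

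Per length, the receptors were the least abundant group. The median FPKM of the 9 receptors was 0.227 (long) and 0.413 (short), and that of the 15 effectors 1.79 and 3.95. Fitted and deposited folds differed in size between the groups. Without the RRS1-locus copy on A02, the fitted log2 fold change of the receptors was larger than the authors' deposited value by a median of 0.31 (0.18 to 1.51, 8 genes), against 0.05 for the effectors (14 genes) and 0.10 for all listed genes tested with reads in both pools (2499 genes). For BnaC07g35930D the deposited value was -1.28 against -2.79 fitted. With 0.1 FPKM added to both pool means, their log2 ratio came within 0.02 of the deposited value for 48.4% of the 3248 listed genes. With nothing added it did so for 10% of the 3036 genes with FPKM above 0 in both pools. Whether the authors added such a value was not tested.

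**Figure D5:**
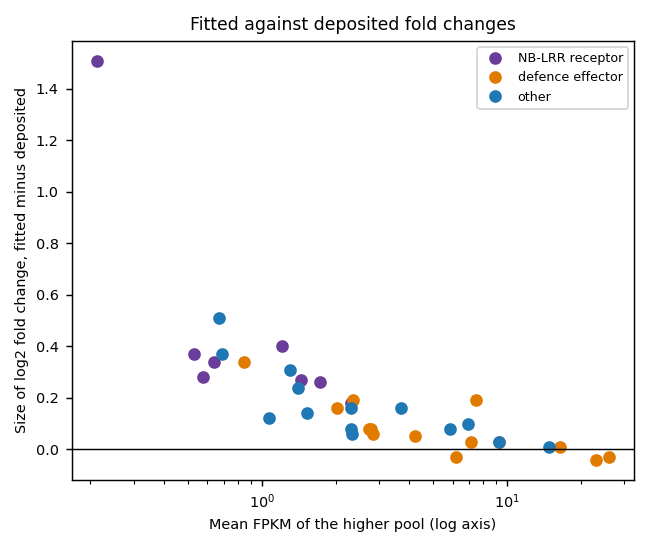
Size of the fitted log2 fold change minus that of the authors' deposited value (vertical) against the mean FPKM of the higher pool (horizontal, log axis) for the 36 tested genes with reads in both pools. The difference grows towards low FPKM, where most receptors lie, and is near 0 above 10 FPKM.

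Of 44 Arabidopsis loci of immune signalling looked up beside these genes, such as EDS1, NPR1, PR1 and FLS2, 2 had a listed copy. These were SGT1B, a chaperone of NB-LRR receptors, and WRKY33, a regulator of defence against fungi that feed on dead tissue. The SGT1B copy (BnaCnng42110D) had 62, 73 and 68 reads in long and 12, 27 and 23 in short libraries, with log2 fold change 1.78 ± 0.34 (SE; edgeR adjusted p = 0.00482). Both WRKY33 copies were lower, by -1.91 ± 0.27 for BnaA03g17820D and -1.66 ± 0.41 for BnaC04g06800D (SE; edgeR adjusted p = 0.00043 and 0.0386). No listed gene matched the other 42 loci, so these were not analysed here.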

How the data were processed

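Per the series design text, clean reads were mapped to the Darmor reference and uniquely mapped reads were quantified; the sources used here name no aligner or release. The submitters' processing notes name DESeq2 and edgeR. The authors deposited 1 table of called genes with whole read counts, FPKM (scaled by the authors to length and depth), log2 fold changes, p-values and FDR. Gene names come from that table; 0 of its IDs matched the RefSeq gene table, and no sequences are shown.

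Library totals were recovered from counts, FPKM and gene span, over genes reaching 200 counts and 5 FPKM. The 65264 genes tested by the authors were recovered from the first 20 FDR and p values (rounding allows 65242 to 65287). The deposited counts of the whole table entered edgeR 4.0.16 under R 4.3.3 (robust quasi-likelihood, filterByExpr, recovered totals as library sizes, no TMM). Adjustment ran over 65264 genes, so unlisted genes are taken to have larger p-values. Because listed genes were picked for their difference, the estimated spread, and with it p, may be too small. The SE is the size of the log2 change divided by the root of F. The edgeR fit, with adjustment over 65264 genes, was also run on simulated counts of the 2574 tested genes, long against short. It recovered 11% of log2 changes of 1 and 68% of log2 changes of 2, with 1 false call. Whether these rates hold for the deposited counts, where 66.6% of the tested genes were called, was not tested. DESeq2 1.42.0 was an alternative. Intervals are exact at 95% and, like floors, cover counting error only. Figures used matplotlib 3.10.9.

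Roles were assigned by words in the Swiss-Prot description. Named were up to 8 called genes per role and direction, genes with at most 3 counts in a pool, genes sharing an Arabidopsis locus and the 3 nearest the threshold on each side; the other genes were added so that each member is accounted for. The members and lists were chosen with earlier results of these data known.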

Additional observations from a re-analysis of the deposited data

How the results depend on the processing

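No direction of a tested gene reversed in the alternatives run. Of the 31 calls, 17 were shared with TMM, 17 with DESeq2 size factors, 23 with column sums as library sizes, 29 with the DESeq2 Wald test and 31 with no filter. Calls lower in the long pool fell from 20 to 6 with TMM, 6 with DESeq2 size factors and 12 with column sums; among receptors from 4 to 2 and 2 with the first pair, among effectors from 9 to 1, 1 and 4, and among the other genes from 7 to 3 and 3. A limit of 0.01 on the adjusted p left 7 genes higher and 13 lower, among effectors 1 and 5. Leaving out 1 library called 6 to 8 genes higher and 11 to 19 lower. By role this gave 3 to 4 and 2 to 3 receptors, 1 to 2 and 4 to 8 effectors, and 2 to 3 and 5 to 8 other genes. Fewer samples entered those fits. Classing by functional class or locus, chosen after seeing the data, left 2 other genes higher. Same-numbered libraries did not deviate together (correlations of 0.041, 0.010 and 0.006 over 2574 genes). These values cannot show whether same-numbered libraries were collected or prepared together. With the replicate block 7 genes were higher, 1 of them an effector, and 15 lower. The cause of these shifts was not tested. TMM and DESeq2 size factors take most genes to be unchanged, which genes listed for their difference do not meet. At these depths 3 counts in 1 library correspond to 0.0991 to 0.131 CPM, and the 8 untested genes had means of 0.0110 to 0.162 CPM in their lower pool.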
